A study of Mus musculus with 13 samples.

Results

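The major histocompatibility complex (MHC) genes were followed across 13 RNA-seq libraries of mouse stromal cells. They were taken as every gene of the count table whose symbol starts with H2- plus B2m, Cd74, Ciita, Nlrc5 and Tapbp, which gave 49 of 23418 genes. Of these, 35 belong to class I, 12 to class II, and 2 (H2-Ke2 and H2-Ke6) lie in the region without encoding an MHC chain. The libraries were made from muscle FAPs (n = 4, replicates 2 to 5), lung FAPs (n = 5, replicates 1 to 5) and MEFs (n = 4, replicates 1 to 4). FAP stands for fibro-adipogenic progenitor, a Pdgfra-positive stromal cell of muscle with relatives in other organs, and a MEF is a fibroblast derived from mouse embryos. The study sought transcripts of muscle FAPs that could influence satellite cells, from which muscle fibres regenerate. The labels name the tissue of the FAPs and the cell type and give no genotype, strain, sex, age, treatment, sort or culture for any group, nor do they say whether animals were pooled. They also do not say that replicates came from separate animals or cultures, so each p-value is set against the variation among these samples alone, and that variation may be technical.

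Total counts per library ran between 41327292 and 44699463 for muscle FAPs, between 28636183 and 35464622 for lung FAPs, and between 33756915 and 41466585 for MEFs. Levels are given as CPM, read counts scaled to the size of their library and adjusted by the trimmed mean of M-values. The summed level of the FAP markers Pdgfra, Ly6a, Cd34 and Dcn was 22695 to 26204 CPM in muscle FAPs, 13006 to 23293 CPM in lung FAPs and 204 to 229.9 CPM in MEFs, with all 4 markers detected in both kinds of FAP. A few libraries stood apart from their group. Lung FAP 3 held 8805 CPM of lung epithelium markers against 56.6 to 142 CPM in the other 4 lung libraries, lung FAP 2 held 766 CPM of endothelium markers against 55.8 to 253 CPM, and muscle FAP 5 had its own profile of class I genes, described with them.

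MHC class I molecules sit on nearly all nucleated cells and show CD8 T cells short peptides cut from the cell's own proteins. A polymorphic heavy chain (H2-K1 or H2-D1 in the mouse) pairs with the invariant light chain B2m, and tapasin (Tapbp) holds the empty pair at the TAP peptide transporter while a peptide binds. Class II molecules are dimers of an alpha and a beta chain that present peptides of endocytosed proteins to CD4 T cells. They are made mainly by dendritic cells, B cells and macrophages, where Cd74, the invariant chain, fills their groove until H2-DM exchanges its remnant for a peptide. Nlrc5 and Ciita are the transactivators of the class I and class II genes, and interferon gamma induces both. Stromal cells carry class I at rest and acquire class II under interferon gamma in some settings.

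In the GENCODE annotation of GRCm38 (release M21), 45 of the 49 members were found, and 41 of them lie on chromosome 17. The classical heavy chain genes are H2-K1 at chr17:33996017-34000347 on the minus strand and H2-D1 at chr17:35262730-35267499 on the plus strand. H2-Q4 lies at chr17:35379617-35385290 (plus) and H2-T23 at chr17:36029773-36032855 (minus). The class II chain genes are H2-Ab1 at chr17:34257689-34269419 (plus), H2-Aa at chr17:34282744-34287823 (minus) and H2-Eb1 at chr17:34305867-34316674 (plus). B2m lies elsewhere, at chr2:122147686-122153083, as do Nlrc5 at chr8:94434356-94527272 and Ciita at chr16:10480059-10528418.

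The upstream sequence is shown for 4 members whose levels carry the results: the light chain gene B2m and H2-Q4 for class I, and the chain genes H2-Aa and H2-Eb1 for class II. Each run is the 250 bases before the RefSeq gene start in GRCm38, read 5′ to 3′ on the gene's strand. The windows are chr2:122147437-122147686 for B2m, chr17:35379367-35379616 for H2-Q4, chr17:34287824-34288073 for H2-Aa (minus strand) and chr17:34305617-34305866 for H2-Eb1. Capitals mark matches on either strand to the CCAAT box (CCAAT), the interferon regulatory factor element (AANNGAAA) or the X box of class II genes, and no matches overlapped in these windows.
B2m: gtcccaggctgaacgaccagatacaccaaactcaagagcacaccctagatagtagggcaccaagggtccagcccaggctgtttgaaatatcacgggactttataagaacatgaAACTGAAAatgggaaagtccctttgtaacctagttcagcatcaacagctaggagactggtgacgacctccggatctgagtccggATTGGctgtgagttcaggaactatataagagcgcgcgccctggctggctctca
H2-Q4: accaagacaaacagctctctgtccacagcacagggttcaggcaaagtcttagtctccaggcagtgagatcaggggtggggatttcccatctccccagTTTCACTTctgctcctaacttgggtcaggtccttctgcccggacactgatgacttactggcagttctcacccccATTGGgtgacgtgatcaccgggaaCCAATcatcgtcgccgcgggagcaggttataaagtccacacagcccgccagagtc
H2-Aa: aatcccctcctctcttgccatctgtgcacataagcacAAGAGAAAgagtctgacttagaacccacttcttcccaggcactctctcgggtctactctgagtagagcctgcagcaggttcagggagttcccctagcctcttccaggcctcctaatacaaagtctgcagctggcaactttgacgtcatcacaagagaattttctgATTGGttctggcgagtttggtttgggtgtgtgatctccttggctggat
H2-Eb1: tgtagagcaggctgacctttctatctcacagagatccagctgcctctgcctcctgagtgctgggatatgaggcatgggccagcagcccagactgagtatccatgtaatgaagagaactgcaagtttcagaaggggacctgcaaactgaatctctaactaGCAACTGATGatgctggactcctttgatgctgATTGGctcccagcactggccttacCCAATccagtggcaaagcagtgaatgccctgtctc
RefSeq had 26 windows for 24 of the 35 class I genes and 9 windows for 8 of the 12 class II genes, because H2-K1, H2-M9 and H2-DMa have a second listed start. The X box matched in 4 class II windows (H2-DMb1, H2-Eb1, H2-Eb2 and H2-Ob) and in 0 class I windows, with 2.097% of 32851 windows of this length matching. The CCAAT box matched in 8 of the 9 class II windows, with no match in the upstream window of H2-DMa, and in 23 class I windows, with 33.8% of all windows matching. The interferon regulatory factor element matched in 16 class I windows, B2m and H2-Q4 among them, and in 3 class II windows, with 21.3% of all windows matching. An NF-kB motif, which matched in 0.289% of all windows, was found in 5 class I windows (those of H2-D1, H2-K1, H2-Q6 and H2-Q7) and 0 class II windows. The motifs were settled after windows of these genes had been looked at, and a match describes letters, not binding.

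Class I genes were higher in both kinds of FAP than in MEFs. Of the 35 class I members, 15 were abundant enough to be tested. In muscle FAPs against MEFs, 14 of the 15 were higher, 0 were lower and Nlrc5 was not called, where 73.5% of all 15412 genes tested were called, 36.1% higher and 37.3% lower (edgeR's quasi-likelihood test, Benjamini-Hochberg adjusted p under 0.05). In lung FAPs against MEFs, 13 of the 15 were higher, 0 were lower, and H2-Q10 and Nlrc5 were not called, where 74.4% of all genes were called, 37.8% higher and 36.6% lower. The members called were also those with all FAP libraries above all MEF libraries, 14 in muscle FAPs and 13 in lung FAPs, which held for 35.7% of all genes in muscle FAPs and 32.2% in lung FAPs, and the reverse for 38.2% and 33.1%. H2-K2, H2-Q5, H2-Q10, H2-Q1 and H2-T3 entered the test without reaching its cutoff of 0.262 CPM in every library of all 3 groups, which favours a difference. Among the 10 class I members that did reach it everywhere, 9 were higher in muscle FAPs and 9 in lung FAPs, with median log2 fold changes of 3.56 and 3.21, and over all genes the medians were -0.04 and 0.02. Both comparisons use the same MEF libraries.

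H2-K1, the K heavy chain, had 449, 532, 532 and 1036 CPM in muscle FAPs 2 to 5, 629, 487, 467, 606 and 495 CPM in lung FAPs 1 to 5, and 35.1, 26.8, 21.9 and 40.1 CPM in MEFs 1 to 4. Muscle FAP 5 was the highest library, the other muscle libraries lay within or just below the lung range, and no MEF library came near either. Its level was 20.5-fold that of MEFs in muscle FAPs (log2 fold change 4.36 ± 0.33 (SE), adjusted p = 2.57e-09), and lung FAPs stood 17.3-fold above MEFs (log2 fold change 4.11 ± 0.21 (SE), adjusted p = 3.50e-09). H2-D1, the D heavy chain, had 256, 264, 258 and 429.7 CPM in muscle FAPs, 250.01, 189, 186, 200.2 and 201 CPM in lung FAPs, and 17.8, 19.8, 17.7 and 17.1 CPM in MEFs. Every muscle library was above every lung library, the closest being muscle FAP 2 and lung FAP 1, and the MEFs lay far below. The differences from MEFs were 16.7-fold for muscle FAPs (log2 fold change 4.06 ± 0.19 (SE), adjusted p = 2.48e-11), against 11.3-fold for lung FAPs (log2 fold change 3.50 ± 0.09 (SE), adjusted p = 7.28e-11).

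**Figure D1:**
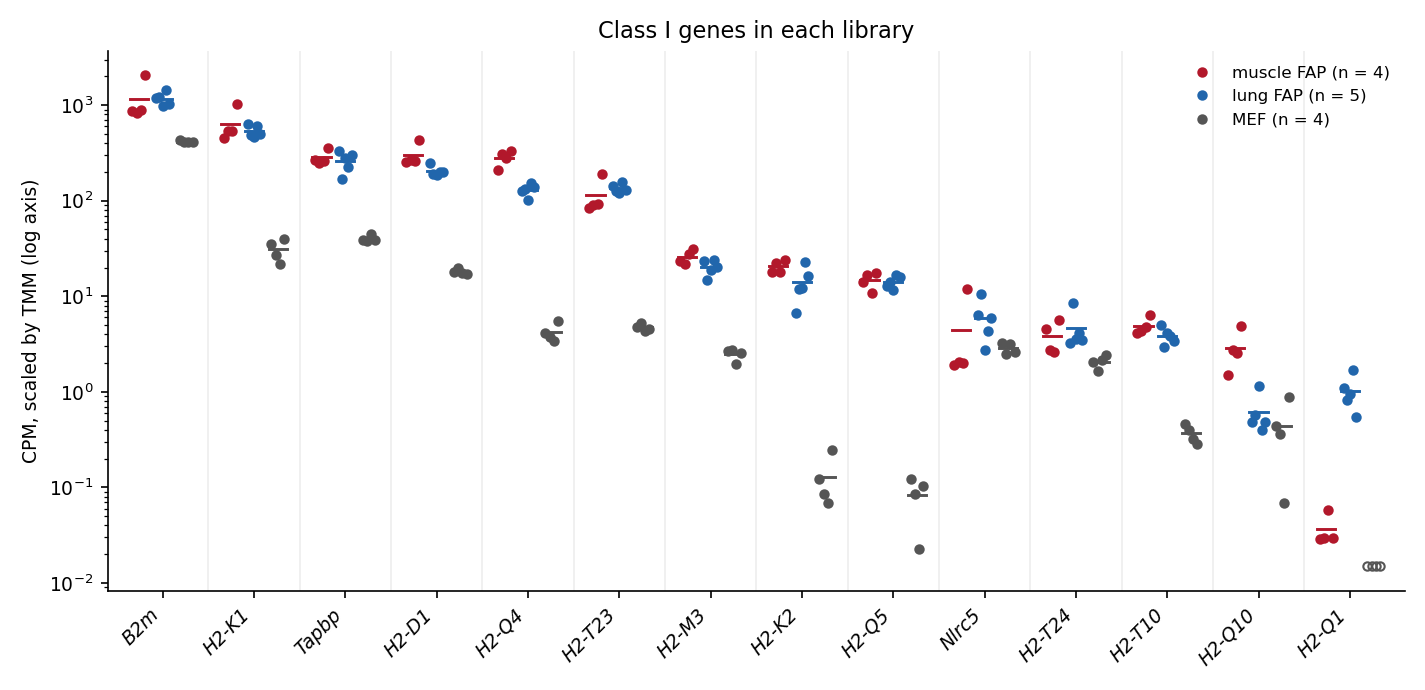
Class I genes by library. Each point is the TMM-scaled CPM of 1 library on a log axis, for muscle FAPs (red), lung FAPs (blue) and MEFs (grey), the bars are group means, and open circles at the bottom stand for 0. H2-K1 lies between 449 and 1036 CPM in muscle FAPs and between 21.9 and 40.1 CPM in MEFs, and muscle FAP 5 is the highest muscle point for B2m, H2-K1, H2-T23 and Nlrc5.

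Among the nonclassical chains, H2-Q4 and H2-T23 had larger folds over MEFs than H2-K1 and H2-D1 in both kinds of FAP, a difference between genes that was not tested. H2-Q4, a nonclassical chain of the Q region, had 212, 307, 279 and 333 CPM in muscle FAPs, 126, 134, 102, 152 and 139 CPM in lung FAPs, and 4.14, 3.72, 3.41 and 5.49 CPM in MEFs. The 3 groups did not overlap, and muscle FAPs were the highest. The level was 67.4-fold that of MEFs in muscle FAPs (log2 fold change 6.07 ± 0.21 (SE), adjusted p = 1.66e-12), and lung FAPs stood 31.1-fold above MEFs (log2 fold change 4.96 ± 0.18 (SE), adjusted p = 6.61e-12). H2-T23, which encodes Qa-1, the ligand of the CD94/NKG2 receptors of natural killer cells, had 84.0, 91.0, 91.4 and 190.2 CPM in muscle FAPs, 143, 127, 121, 158 and 129.7 CPM in lung FAPs, and 4.82, 5.31, 4.32 and 4.59 CPM in MEFs. Muscle FAPs 2, 3 and 4 lay below all lung libraries and muscle FAP 5 above them, while the MEFs were lower than both. The fold over MEFs was 24.0 in muscle FAPs (log2 fold change 4.58 ± 0.28 (SE), adjusted p = 4.63e-10), against 28.5 for lung FAPs (log2 fold change 4.83 ± 0.09 (SE), adjusted p = 2.28e-10).

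H2-M3, which presents formylated peptides of bacteria and mitochondria, averaged 26.1 ± 4.25 CPM in muscle FAPs, 20.3 ± 3.69 CPM in lung FAPs and 2.48 ± 0.358 CPM in MEFs (SD). H2-K2 and H2-Q5 are annotated as a pseudogene and a polymorphic pseudogene. H2-K2 averaged 20.6 ± 2.96 CPM in muscle FAPs, 14.0 ± 6.01 CPM in lung FAPs and 0.130 ± 0.0803 CPM in MEFs, where it had 24 counts in all. H2-Q5 averaged 14.8 ± 3.08 CPM in muscle FAPs, 14.3 ± 2.05 CPM in lung FAPs and 0.0828 ± 0.0427 CPM in MEFs, where it had 15 counts in all. All 3 genes rose in both FAP groups against MEFs, by 10.5, 152 and 172-fold in muscle FAPs and by 8.17, 103 and 166-fold in lung FAPs. H2-T10, a relative of the H2-T22 ligand of gamma-delta T cells, averaged 4.92 ± 1.01 CPM in muscle FAPs, 3.88 ± 0.780 CPM in lung FAPs and 0.367 ± 0.0793 CPM in MEFs and was higher in both FAP groups. H2-T24 averaged 3.86 ± 1.47 CPM in muscle FAPs, 4.604 ± 2.24 CPM in lung FAPs and 2.06 ± 0.332 CPM in MEFs. Its difference from MEFs was the smallest of those called, 1.87-fold in muscle FAPs (adjusted p = 0.0279, edgeR) and 2.23-fold in lung FAPs (adjusted p = 0.00542, edgeR). Without muscle FAP 5 the muscle difference of H2-T24 was no longer called (adjusted p = 0.116), nor was it without muscle FAP 2 or MEF 1, 2 or 3.

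B2m, the light chain shared by all class I molecules, had 878, 821, 893 and 2053 CPM in muscle FAPs, 1198, 1209.8, 975, 1449 and 1037 CPM in lung FAPs, and 427, 416, 408 and 407 CPM in MEFs. Muscle FAP 5 was the highest of all libraries, muscle FAPs 2, 3 and 4 lay below all lung FAPs, and the 4 MEFs were close together below both. Its rise over MEFs was 2.80-fold in muscle FAPs (log2 fold change 1.49 ± 0.31 (SE), adjusted p = 7.45e-05), against 2.83-fold for lung FAPs (log2 fold change 1.501 ± 0.10 (SE), adjusted p = 4.64e-05). The summed heavy chains stood further above MEFs than the light chain did. Summed over the class I H2 symbols, the heavy chains gave 1068 to 2079 CPM in muscle FAPs, 929.6 to 1202 CPM in lung FAPs and 52.3 to 74.1 CPM in MEFs. The ratio of B2m to that sum was 0.796 ± 0.146 for muscle FAPs, 1.10 ± 0.111 for lung FAPs and 6.59 ± 0.966 for MEFs (SD). Because the ratio is of CPM and not per length, it compares groups and not the 2 chains. The labels give no strain, so equal mapping of the polymorphic heavy chains across groups could not be checked.

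Per kilobase of annotated exon, the class I order was much the same in both kinds of FAP. B2m stood at 1350.1 CPM per kilobase in muscle FAPs and 1365 in lung FAPs. H2-K1 followed at 217 in muscle FAPs and 183 in lung FAPs, then H2-D1 at 117 in muscle FAPs and 79.6 in lung FAPs. H2-Q4 was at 109 in muscle FAPs, next to H2-D1, and at 50.3 in lung FAPs, next to H2-T23 with 46.9. H2-K1, H2-D1, H2-Q4 and H2-T23 together made up 94.6% ± 0.792 of the summed class I heavy chain CPM in muscle FAPs, 94.4% ± 0.687 of it in lung FAPs and 90.8% ± 0.295 in MEFs (SD). H2-Q4 supplied 20.7% ± 3.63 of that sum in muscle FAPs, 12.3% ± 1.43 of it in lung FAPs and 6.52% ± 0.627 in MEFs. H2-T23 supplied 7.91% ± 0.868 in muscle FAPs, 12.7% ± 0.508 of it in lung FAPs and 7.55% ± 1.12 in MEFs. The sum includes H2-K2 and H2-Q5, and H2-Q6, H2-Q7, H2-Q8, H2-Q9 and H2-T9 had 0 counts in every library. How reads shared by close copies were counted is not given, so these are shares of the counted reads only.

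Between the 2 kinds of FAP, most class I genes were not called with all libraries in the fit, a count that moved with muscle FAP 5. Of the 15 tested, H2-D1, H2-Q4 and H2-Q10 were higher in muscle FAPs, H2-Q1 lower and 11 were not called, where 48.2% of all genes were called, 23.2% higher and 25% lower. The libraries of these 4 members did not overlap between the groups, as for 19% of all genes with muscle FAPs above and 19% with muscle FAPs below. H2-Q1 reached the test's cutoff in every library in lung FAPs alone, so its entry into the test rests on where it is high. Among the 10 class I members that reached it in every library of all 3 groups, 2 were higher in muscle FAPs and 0 lower. Without muscle FAP 5 the class I counts were 3 higher and 4 lower. They were 5 higher and 3 lower with limma-voom with sample weights, a test over all genes that can give a deviating library less weight. H2-Q4 was 2.16-fold higher in muscle than in lung FAPs (log2 fold change 1.11 ± 0.17 (SE), adjusted p = 3.37e-05), and H2-D1 1.47-fold (log2 fold change 0.56 ± 0.20 (SE), adjusted p = 0.0061). H2-Q10, a secreted class I molecule known from liver, had 1.49, 2.75, 2.53 and 4.85 CPM in muscle FAPs, 0.487, 0.571, 1.16, 0.399 and 0.481 CPM in lung FAPs, and 0.436, 0.361, 0.0682 and 0.881 CPM in MEFs. All muscle libraries were above all lung libraries and all MEFs, with a 4.66-fold difference from lung FAPs (log2 fold change 2.22 ± 0.42 (SE), adjusted p = 0.00399). H2-Q1 went the other way, with 0.0291, 0.0296, 0.0576 and 0.0299 CPM in muscle FAPs, 1.09, 0.828, 0.954, 1.69 and 0.542 CPM in lung FAPs and 0 in every MEF library. Those muscle values rest on 5 counts in all against 168 counts in lung FAPs, and the level was 25.6-fold lower in muscle FAPs (log2 fold change -4.68 ± 0.27 (SE), adjusted p = 9.97e-05). The SE, taken from log2 CPM with a prior count of 2, is too small for so few counts. H2-Q1 stood 60.8-fold above a floor of 3 counts over the MEF group in lung FAPs and 2.22-fold above it in muscle FAPs. That floor covers the counting error of the MEF group alone. The 5 muscle counts carry counting error of their own, so the muscle value is not a lower bound. H2-D1 was not called when counts were scaled by library size only (adjusted p = 0.371).

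Tapbp, the tapasin gene, had 269, 251, 259.8 and 357 CPM in muscle FAPs, 328, 169, 279, 226 and 301 CPM in lung FAPs, and 39.1, 37.8, 45.2 and 38.7 CPM in MEFs. Both FAP groups overlapped and lay above all MEFs, at 7.07-fold for muscle FAPs (log2 fold change 2.82 ± 0.13 (SE), adjusted p = 3.01e-09), against 6.48-fold for lung FAPs (log2 fold change 2.70 ± 0.18 (SE), adjusted p = 3.50e-09). Nlrc5, the class I transactivator, had 1.89, 2.07, 2.02 and 11.8 CPM in muscle FAPs, 6.33, 10.7, 2.77, 4.35 and 5.87 CPM in lung FAPs, and 3.25, 2.48, 3.20 and 2.60 CPM in MEFs. Muscle FAPs 2, 3 and 4 were the lowest 3 libraries of all 13 and muscle FAP 5 was the highest, so the muscle group spanned the whole range. Nlrc5 was called in 0 of the 3 comparisons with all libraries (adjusted p = 0.529 for muscle FAPs against lung FAPs, 0.329 for muscle FAPs against MEFs and 0.0905 for lung FAPs against MEFs, edgeR).

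Several of these values rested on muscle FAP 5. It was the highest muscle library for 13 of the 15 class I members tested, where it was the highest for 29.95% of all genes tested. It exceeded every other muscle library by 1.5-fold or more for 6 of the 15, where 3.61% of all genes did so. Nlrc5 was 5.92-fold the mean of the other 3 muscle libraries, B2m 2.38-fold, H2-Q10 2.15-fold, H2-T23 2.14-fold and H2-K1 2.05-fold. H2-Q4 was 1.25-fold and H2-Q5 1.27-fold. Without muscle FAP 5, 4 class I members in place of 1 were lower in muscle than in lung FAPs, namely H2-Q1 together with B2m (log2 fold change -0.44, adjusted p = 0.0142), H2-T23 (-0.61, adjusted p = 0.000405) and Nlrc5 (-1.59, adjusted p = 0.00265), all by edgeR. The members higher in muscle FAPs were 3 with and 3 without it. Without it Nlrc5 was also called in lung FAPs against MEFs (log2 fold change 1.04, adjusted p = 0.00854).

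Several genes that supply peptides to class I molecules also stood out in muscle FAP 5, and fewer genes of interferon signalling did. Of the 12 genes of peptide supply and loading, muscle FAP 5 was the highest muscle library for 9 and exceeded all others by 1.5-fold or more for 6. Of the 12 tested genes of interferon signalling, it was the highest muscle library for 5 and exceeded all others by 1.5-fold or more for 3, against the 29.95% and 3.61% of all genes given above. Tap1, a subunit of the peptide transporter, had 34.0, 27.5, 38.0 and 118 CPM in muscle FAPs and 34.9, 25.7, 26.1, 19.3 and 28.9 CPM in lung FAPs. Muscle FAP 5 was the highest of the 9 FAP libraries. The other genes of this paragraph were chosen after their values were seen. The immunoproteasome subunit Psmb9 had 5.10, 4.94, 5.38 and 29.4 CPM in the muscle libraries and its partner Psmb8 had 18.8, 17.2, 18.1 and 44.6 CPM. The interferon-activated factor Irf9 had 64.7, 59.9, 63.9 and 120.5 CPM in the same order. In Tap1 and these 3 genes muscle FAPs 2, 3 and 4 lay close together and muscle FAP 5 lay apart. For 7 genes of interferon signalling muscle FAP 5 was below the mean of the other 3 muscle libraries. For the other 5 it was the highest muscle library. Among these 5, Irf9 stood at 1.92, Stat2 at 1.68, Socs1 at 1.30 and Tyk2 at 1.14 of that mean. Among the 7 below it, most were close to that mean. The receptor genes Ifngr1, Ifngr2, Ifnar1 and Ifnar2 stood at 0.929, 0.946, 0.962 and 0.980 of that mean, Jak1 and Jak2 at 0.746 and 0.677, and Irf1 at 0.865. Ifng itself was at or near 0, with 0 to 0.150 CPM in muscle FAPs, 0 to 0.199 CPM in lung FAPs and 0 in MEFs. The 0.150 CPM was that of muscle FAP 5, on very few counts. The part of interferon signalling in the class I levels of that library was not tested.

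**Figure D2:**
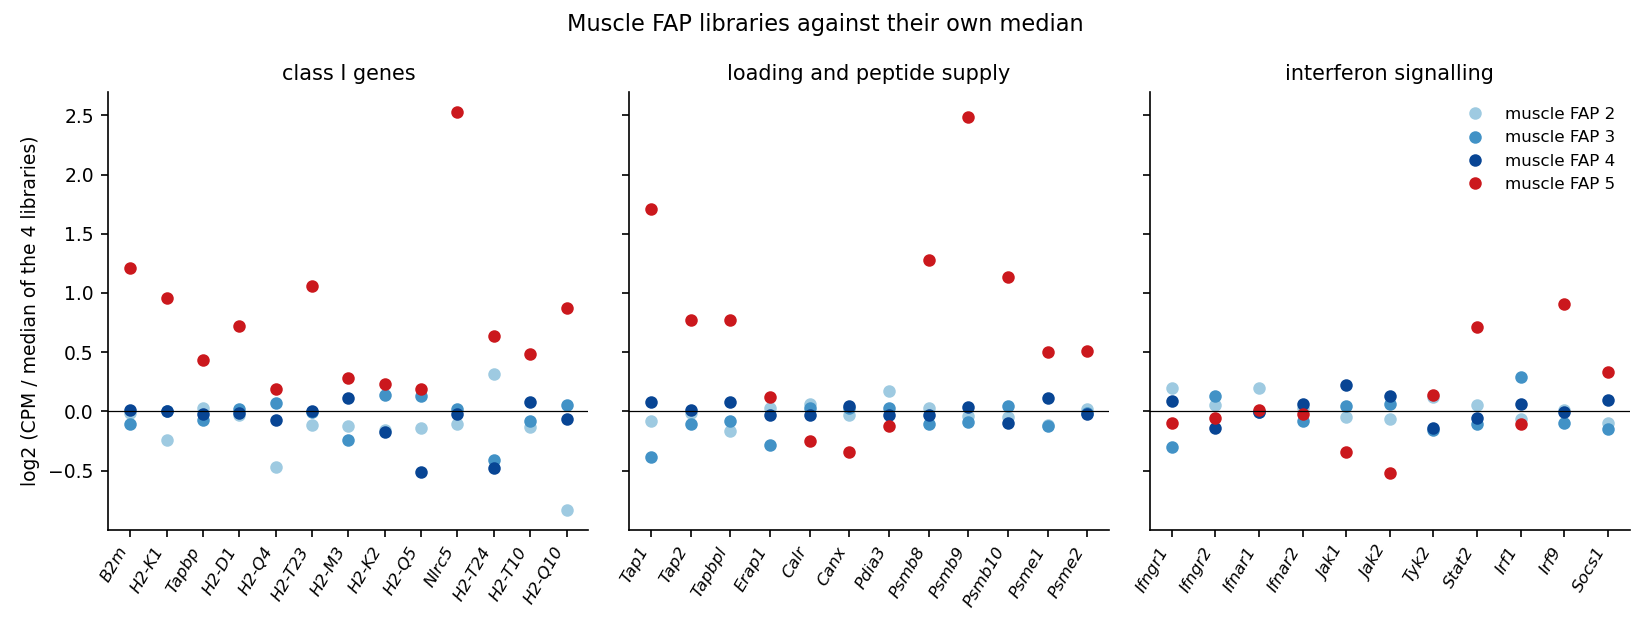
The 4 muscle FAP libraries against their own median for class I members and for genes of peptide supply and loading and of interferon signalling. Each point is the log2 ratio of a library's CPM to the median of the 4 muscle libraries, with muscle FAP 5 in red. Muscle FAP 5 stands at 11.8 CPM for Nlrc5 and 29.4 CPM for Psmb9, while the other 3 libraries stay near their median for both genes.

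Most of the class II genes that could be tested were higher in lung FAPs than in muscle FAPs and in MEFs. Of the 12 class II members, 7 were tested. Set against lung FAPs, muscle FAPs had 0 of them higher, 5 lower (Cd74, H2-Aa, H2-Ab1, H2-Eb1 and H2-DMb1) and H2-DMa and Ciita not called, where 23.2% of all genes were higher and 25% lower. In lung FAPs against MEFs, 6 were higher and H2-DMa was lower, where 37.8% of all genes were higher and 36.6% lower. Set against MEFs, muscle FAPs had 0 of them higher, H2-DMa lower and 6 not called, where 36.1% of all genes were higher and 37.3% lower. Cd74 and H2-Aa reached the test's cutoff in every library in lung FAPs alone, H2-Ab1 in lung FAPs and MEFs, and Ciita in no group, so their entry into the test rests on where they are high. H2-Eb1, H2-DMb1 and H2-DMa reached it in every library of all groups, and of these 3 H2-Eb1 and H2-DMb1 were lower in muscle than in lung FAPs. In bulk samples, fewer cells of a type and less RNA per cell cannot be told apart.

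H2-Aa, the alpha chain of the A molecule, had 0.204, 0.148, 0.0864 and 0.389 CPM in muscle FAPs, 4.12, 13.2, 25.3, 9.90 and 4.30 CPM in lung FAPs, and 0.0242, 0.149, 0.295 and 0.0615 CPM in MEFs. Every lung library was above every muscle and MEF library, and lung FAP 3 was the highest. H2-Aa was 54.2-fold lower in muscle than in lung FAPs (log2 fold change -5.76 ± 0.60 (SE), adjusted p = 2.16e-05), and lung FAPs stood 83.6-fold above MEFs (log2 fold change 6.39 ± 0.68 (SE), adjusted p = 2.71e-06). H2-Ab1, the beta chain that pairs with it, had 0.990, 0.177, 0.317 and 0.569 CPM in muscle FAPs, 11.7, 9.16, 18.3, 7.41 and 5.39 CPM in lung FAPs, and 0.533, 0.573, 0.750 and 0.430 CPM in MEFs. The lung libraries again lay above all others. The level was 20.1-fold lower in muscle than in lung FAPs (log2 fold change -4.33 ± 0.56 (SE), adjusted p = 4.19e-06), and lung FAPs stood 18.1-fold above MEFs (log2 fold change 4.18 ± 0.33 (SE), adjusted p = 1.03e-06).

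H2-Eb1, the beta chain of the E molecule, had 1.398, 1.57, 1.73 and 2.22 CPM in muscle FAPs, 7.13, 8.28, 13.4, 8.77 and 7.76 CPM in lung FAPs, and 1.19, 2.25, 1.66 and 1.21 CPM in MEFs. Muscle FAPs and MEFs overlapped and both lay below all lung libraries. It was 5.24-fold lower in muscle than in lung FAPs (log2 fold change -2.39 ± 0.21 (SE), adjusted p = 4.64e-06), and lung FAPs stood 5.74-fold above MEFs (log2 fold change 2.52 ± 0.26 (SE), adjusted p = 5.50e-07). Its alpha chain partner is annotated as the polymorphic pseudogene H2-Ea-ps and had 0 counts in muscle FAPs, 5 counts in lung FAPs, all of them in lung FAP 4, and 0 counts in MEFs. Summed, H2-Aa, H2-Ab1 and H2-Eb1 gave 1.89 to 3.17 CPM in muscle FAPs, 17.5 to 57.0 CPM in lung FAPs and 1.70 to 2.97 CPM in MEFs. Even the lung sums were small beside the class I heavy chain sums of the same libraries, 929.6 to 1202 CPM. Per kilobase of exon, the lung means were 17.6 CPM for Cd74, 4.67 for H2-Eb1, 4.05 for H2-Ab1 and 2.99 for H2-Aa, against 183 for H2-K1.

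**Figure D3:**
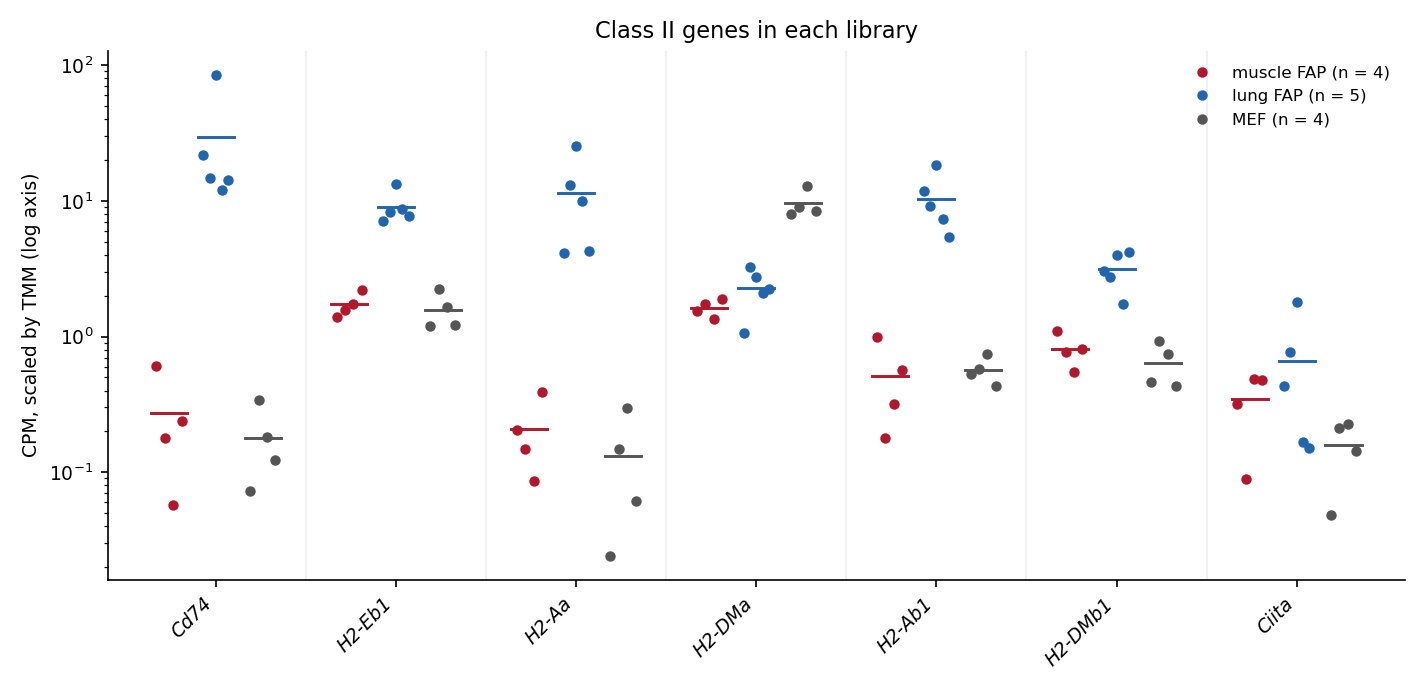
Class II genes by library. Each point is the TMM-scaled CPM of 1 library on a log axis, for muscle FAPs (red), lung FAPs (blue) and MEFs (grey), and the bars are group means. Cd74 lies between 12.0 and 85.1 CPM in lung FAPs and at most 0.612 CPM in muscle FAPs, and H2-DMa is highest in MEFs.

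Cd74, the invariant chain, which lies at chr18:60803848-60812652, had 0.612, 0.177, 0.0576 and 0.239 CPM in muscle FAPs, 21.9, 14.8, 85.1, 12.0 and 14.3 CPM in lung FAPs, and 0.0727, 0.340, 0.182 and 0.123 CPM in MEFs. All 5 lung libraries were above all others, and lung FAP 3 was 3.89-fold above the next lung library. Cd74 was 108-fold lower in muscle than in lung FAPs (log2 fold change -6.75 ± 0.74 (SE), adjusted p = 3.11e-05), and lung FAPs stood 160.5-fold above MEFs (log2 fold change 7.33 ± 0.62 (SE), adjusted p = 5.12e-06). Without lung FAP 3 the log2 fold changes were -5.84 and 6.42, both called. H2-DMa and H2-DMb1 form the H2-DM peptide exchanger, and in lung FAPs against MEFs they went different ways. H2-DMb1 had 1.11, 0.769, 0.547 and 0.808 CPM in muscle FAPs, 3.06, 2.77, 4.02, 1.73 and 4.21 CPM in lung FAPs, and 0.461, 0.934, 0.750 and 0.430 CPM in MEFs. It was 3.90-fold lower in muscle than in lung FAPs (log2 fold change -1.96 ± 0.30 (SE), adjusted p = 5.32e-04), and lung FAPs stood 4.89-fold above MEFs (log2 fold change 2.29 ± 0.34 (SE), adjusted p = 5.72e-05). H2-DMa had 1.54, 1.74, 1.35 and 1.89 CPM in muscle FAPs, 1.06, 3.28, 2.77, 2.09 and 2.26 CPM in lung FAPs, and 7.97, 9.09, 12.9 and 8.44 CPM in MEFs. The MEFs lay above all FAP libraries, by 5.87-fold over muscle FAPs (log2 fold change -2.55 ± 0.18 (SE), adjusted p = 1.90e-06, muscle FAPs over MEFs) and 4.18-fold over lung FAPs (log2 fold change -2.06 ± 0.31 (SE), adjusted p = 6.19e-06, lung FAPs over MEFs). Exons of H2-DMa overlap Brd2 on the other strand, with 8.43% of its 50-base words in Brd2 transcripts, and the strand of the libraries is not given in the sources used here.

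Ciita, the class II transactivator, stayed low, with 0.320, 0.0887, 0.490 and 0.479 CPM in muscle FAPs, 0.430, 0.771, 1.79, 0.166 and 0.150 CPM in lung FAPs, and 0.0485, 0.212, 0.227 and 0.143 CPM in MEFs. The lung libraries spread over a wide range with lung FAP 3 at the top, and both muscle FAPs and MEFs overlapped with them. It was called in lung FAPs against MEFs, at 4.11-fold (log2 fold change 2.04 ± 0.68 (SE), adjusted p = 0.0293, edgeR), and not without lung FAP 3 (adjusted p = 0.123), without MEF 1 (adjusted p = 0.0883) or without MEF 4 (adjusted p = 0.0700). The H2-O genes, which restrain H2-DM in B cells, reached the test's cutoff in too few libraries to be tested. H2-Ob had 0 counts in muscle FAPs, 0, 44, 6, 26 and 14 counts in lung FAPs 1 to 5, and 0 counts in MEFs. Lung FAP 2 held the most, 1.26 CPM. H2-Oa had 2 counts in muscle FAPs, 18 counts in lung FAPs and 1 count in MEFs, and 16 of the lung counts were in lung FAP 4 and the other 2 in lung FAP 2. H2-Eb2 had 0 counts in muscle FAPs, 23 counts in lung FAPs, 19 of them in lung FAP 4, and 0 counts in MEFs. H2-DMb2 had 8 counts in muscle FAPs, 24 counts in lung FAPs, 13 of them in lung FAP 4, and 2 counts in MEFs. The lung counts of H2-Oa, H2-Eb2 and H2-DMb2 thus came mostly from 1 library.

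**Figure D4:**
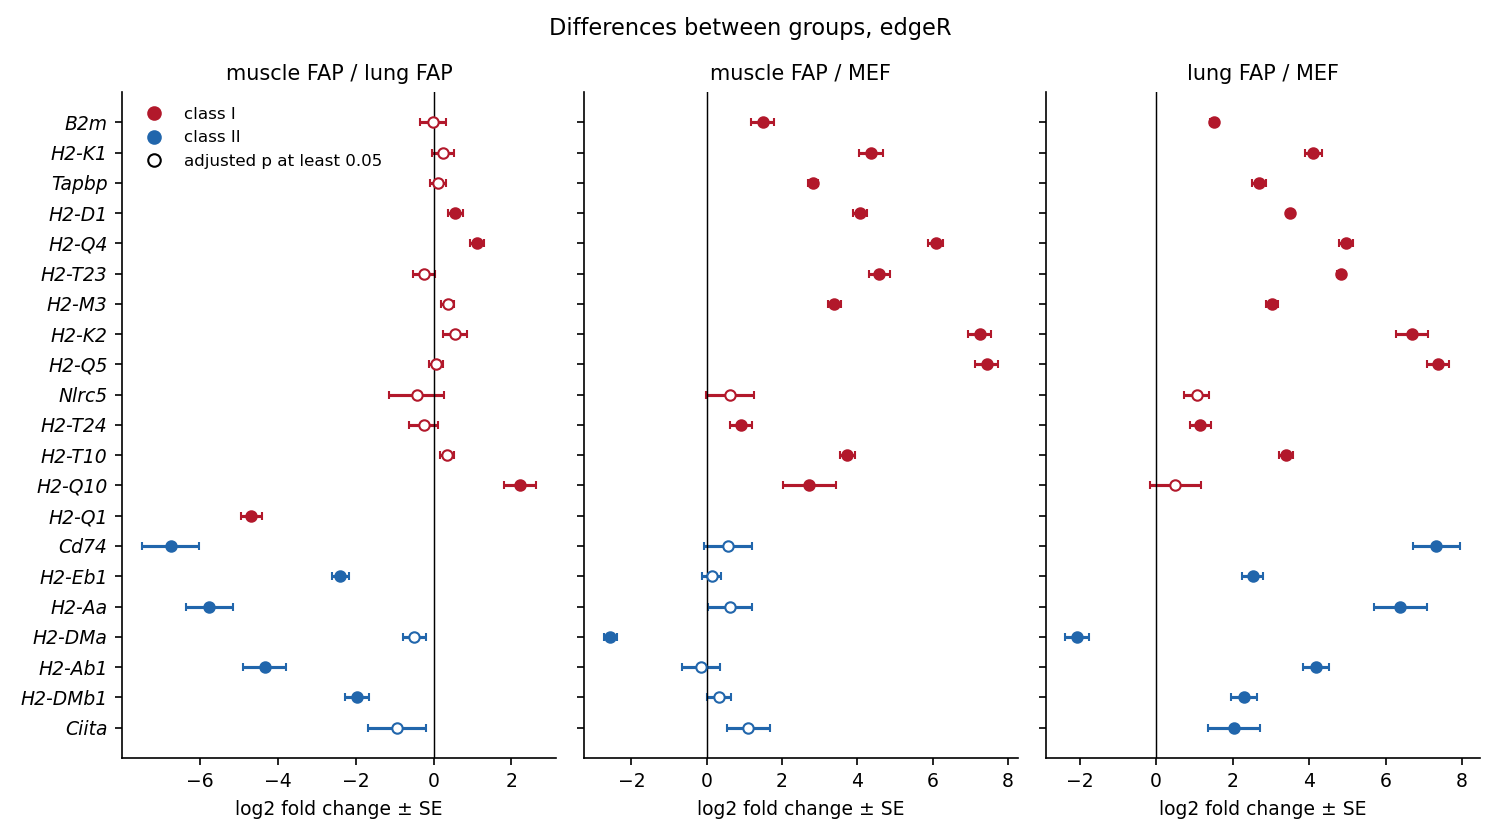
Log2 fold changes from edgeR, with SE from log2 CPM, for class I (red) and class II (blue) members in muscle FAPs over lung FAPs, muscle FAPs over MEFs and lung FAPs over MEFs. Open points did not reach an adjusted p under 0.05, and H2-Q1 is left out against MEFs, where it had 0 counts. Class I points lie to the right in both panels against MEFs, and class II points lie to the left in muscle FAPs over lung FAPs, with Cd74 at -6.75.

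Markers of antigen-presenting and other cells moved with part of this pattern. The 5 pan-leukocyte markers summed to 0.408 to 1.36 CPM in muscle FAPs, 12.5 to 37.9 CPM in lung FAPs and 48.5 to 132 CPM in MEFs, and all 5 were lower in muscle than in lung FAPs, where 25% of all genes were. Ptprc (CD45) had 0, 0.148, 0.0288 and 0 CPM in muscle FAPs, 7.25, 20.2, 13.1, 6.95 and 4.90 CPM in lung FAPs, and 10.7, 7.47, 2.93 and 11.2 CPM in MEFs. The lung and MEF values overlapped and lay above all muscle values. The 13 macrophage and monocyte markers summed to 10.8 to 12.3 CPM in muscle FAPs, 37.7 to 665 CPM in lung FAPs and 178 to 644 CPM in MEFs. Of the 11 tested, 9 were lower in muscle than in lung FAPs and 9 were lower in lung FAPs than in MEFs, where 25% and 36.6% of all genes were, and Marco was at 0 in every FAP library. Lyz2 had 0.320, 0.384, 0.432 and 0.988 CPM in muscle FAPs, 5.56, 7.45, 615, 5.15 and 7.16 CPM in lung FAPs, and 322, 197, 67.6 and 232 CPM in MEFs. The 665 CPM was the sum of lung FAP 3, most of it Lyz2, against 37.7 to 62.3 CPM in the other lung libraries. That library exceeded all other lung libraries by 1.5-fold or more for 1 of the 11 markers tested, where 4.11% of all genes did so. The MEF libraries held macrophage markers at up to 644 CPM with class II chain sums of 1.70 to 2.97 CPM, and which cells carried either was not tested.

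The 8 dendritic cell markers summed to 16.4 to 24.1 CPM in muscle FAPs, 8.34 to 19.7 CPM in lung FAPs and 1.73 to 2.67 CPM in MEFs. Most of that sum was Zbtb46, at 12.6 to 19.7 CPM in muscle FAPs and 6.77 to 14.9 CPM in lung FAPs, and Flt3 was at 0 in muscle FAPs, 0 to 0.366 CPM in lung FAPs and at most 0.0227 CPM in MEFs. Of the 5 tested, 2 were higher in muscle than in lung FAPs, 2 were lower and 1 was not called. Over all genes, 23.2% were higher and 25% lower. The list genes in the rest of this comparison are named after their values were seen. Xcr1 was higher with Zbtb46, averaging 0.696 CPM in muscle FAPs and 0.115 CPM in lung FAPs (adjusted p = 0.0027, edgeR). Ccr7 and Itgax were high in lung FAPs as the class II chains were. Ccr7, the chemokine receptor of migrating dendritic cells, had 0, 0.0887, 0 and 0 CPM in muscle FAPs, 1.32, 1.998, 0.983, 1.83 and 1.32 CPM in lung FAPs, and 0, 0.0849, 0.0227 and 0 CPM in MEFs, and it was lower in muscle than in lung FAPs (adjusted p = 1.64e-04, edgeR). Itgax (CD11c) had at most 0.173 CPM in muscle FAPs, 1.15, 0.599, 0.805, 1.06 and 0 CPM in lung FAPs and at most 0.1698 CPM in MEFs (adjusted p = 0.0141 for muscle FAPs against lung FAPs, edgeR). The 6 B cell markers summed to 0.903 to 1.41 CPM in muscle FAPs, 0.773 to 4.80 CPM in lung FAPs and 0.328 to 0.679 CPM in MEFs. Of the 4 tested, 2 were lower in muscle than in lung FAPs, where 25% of all genes were. All 4 were higher in lung FAPs than in MEFs, where 37.8% of all genes were. The 6 T and NK cell markers summed to 0.346 to 0.858 CPM in muscle FAPs, 0.172 to 2.20 CPM in lung FAPs and 0.341 to 0.630 CPM in MEFs.

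Several endothelium and lung epithelium markers were also higher in lung FAPs than in muscle FAPs and MEFs, while the endothelium sums of MEFs lay within the lung range. All 8 endothelium markers were lower in muscle than in lung FAPs, where 25% of all genes were, and 6 of the 8 were higher in lung FAPs than in MEFs, where 37.8% of all genes were. They summed to 4.16, 9.55, 5.10 and 12.5 CPM in muscle FAPs, 66.1, 766, 55.8, 253 and 94.2 CPM in lung FAPs, and 173, 165, 198 and 193 CPM in MEFs. The MEF sums were mostly Kdr, at 155 to 186 CPM. Esam, an endothelial adhesion gene named after its values were seen, had 0.408, 0.621, 0.490 and 0.718 CPM in muscle FAPs, 26.6, 66.9, 18.5, 31.1 and 25.2 CPM in lung FAPs, and 0.364, 0.552, 0.500 and 0.307 CPM in MEFs. Of the 6 lung epithelium markers tested, 3 were lower in muscle than in lung FAPs and 3 were not called, where 25% of all genes were lower. Against MEFs, 4 of the 6 were higher in lung FAPs, where 37.8% of all genes were. Scgb1a1, a secretory cell gene of the airway, had at most 1.27 CPM in muscle FAPs, 84.9, 69.99, 5127, 20.9 and 12.7 CPM in lung FAPs, and at most 0.242 CPM in MEFs. Every lung library was above every muscle FAP and MEF library for 5 of the 7 class II members tested, 4 of the 8 endothelium markers (Pecam1, Cldn5, Tie1 and Esam), 3 of the 6 lung epithelium markers (Sftpc, Sftpa1 and Scgb1a1) and 1 of the 5 dendritic cell markers (Ccr7), where 9.83% of all genes tested were. That held for 0 of the 5 pan-leukocyte, 0 of the 11 macrophage and monocyte and 0 of the 4 B cell markers tested. For the leukocyte and macrophage lists the MEFs limit this count, because their own sums reached 132 CPM and 644 CPM. All 5 pan-leukocyte markers were lower in muscle than in lung FAPs. Cd74 and H2-Aa reached the test's cutoff in every library in lung FAPs alone. These counts therefore cannot tell which cells carried the class II chains.

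Among the lung libraries, lung FAP 3 was the highest for 5 of the 7 class II members and exceeded all other lung libraries by 1.5-fold or more in those 5, where 4.11% of all genes did so. The same library held the lung epithelium markers and the Lyz2 peak. Without lung FAPs 2 and 3, the remaining lung libraries had leukocyte sums of 12.5 to 14.8 CPM, and the same number of class II members, 5, were lower in muscle FAPs. H2-Aa then had a log2 fold change of -4.87 and H2-Eb1 one of -2.20, both called. The part of other cell types in the lung class II levels was not tested.

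**Figure D5:**
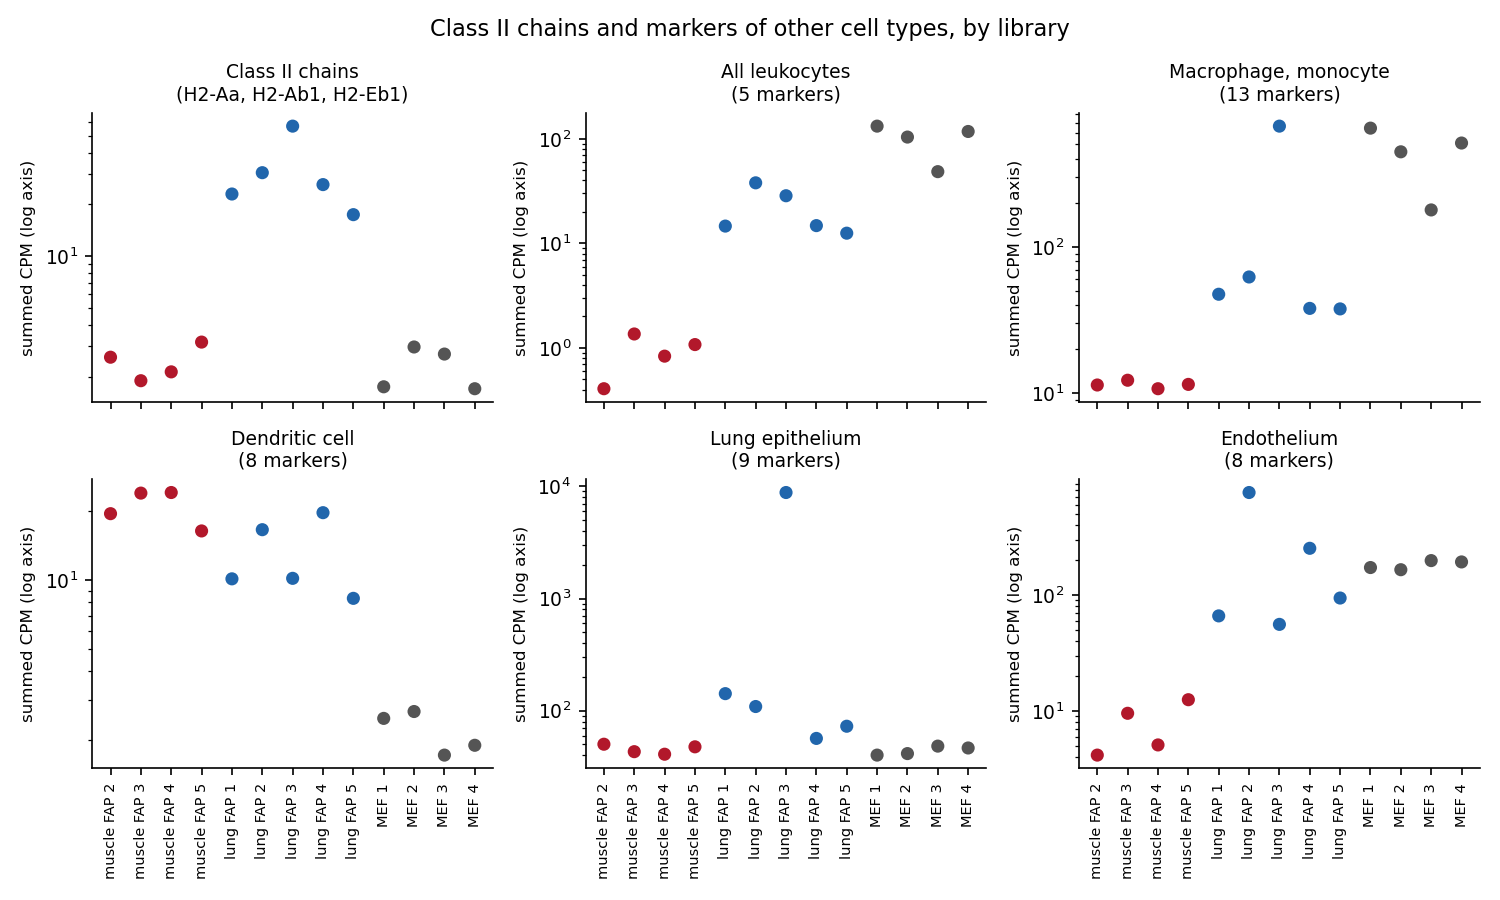
Summed CPM by library (log axes) of the class II chains H2-Aa, H2-Ab1 and H2-Eb1 and of marker lists of other cell types, for muscle FAPs (red), lung FAPs (blue) and MEFs (grey). Class II chains are high in the 5 lung FAP libraries alone, leukocyte markers are high in lung FAPs and MEFs, and lung FAP 3 carries the lung epithelium markers at 8805 CPM.

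The genes around the MHC pathway were read from 6 lists. In muscle FAPs against lung FAPs, 17 of their 51 tested genes were higher, 11 were lower and the median log2 fold change was 0.00, near the median of -0.04 over all genes, where 23.2% of all genes were higher and 25% lower. Against MEFs, 34 were higher and 7 lower in muscle FAPs, where 36.1% of all genes were higher and 37.3% lower, and 35 were higher and 10 lower in lung FAPs, where 37.8% were higher and 36.6% lower. The counts of single lists stand against the same shares. Of the 12 genes of class I peptide supply and loading, 2 were higher in muscle than in lung FAPs, 3 were lower and 7 were not called, where 23.2% of all genes were higher and 25% lower. Those higher were Calr, a chaperone of the loading complex (1283 CPM in muscle FAPs, 799 CPM in lung FAPs, adjusted p = 0.00113), and Tap1 (54.3 CPM in muscle FAPs, 27.0 CPM in lung FAPs, adjusted p = 0.0374). With counts scaled by library size only, which moved the median of all genes by -0.41 on the log2 scale, neither was called (adjusted p = 0.0578 for Calr and 0.168 for Tap1). The Tap1 call was lost without muscle FAP 5 (log2 fold change 0.30, adjusted p = 0.229), and also without lung FAP 2, 3, 4 or 5 or MEF 1 or 2. The immunoproteasome subunit Psmb10 (24.6 CPM in muscle FAPs, 54.7 CPM in lung FAPs, adjusted p = 7.32e-04) and the proteasome activator Psme1 (50.1 CPM in muscle FAPs, 83.1 CPM in lung FAPs, adjusted p = 4.41e-04) were lower, as was Psme2. Against MEFs, 9 of the 12 were higher and 1 lower in muscle FAPs, and 8 were higher and 2 lower in lung FAPs. All adjusted p-values are from edgeR over all genes.

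Of 9 genes of class II lysosomal processing, 4 were higher in muscle than in lung FAPs, 2 lower and 3 were not called, where 23.2% of all genes were higher and 25% lower. Against MEFs, 2 were higher and 3 lower in muscle FAPs, and 2 were higher and 6 lower in lung FAPs, where the class II chains were higher. Ifi30, the lysosomal thiol reductase of antigen processing, averaged 103 ± 7.33 CPM in muscle FAPs and 34.1 ± 5.03 CPM in lung FAPs (log2 fold change 1.60 ± 0.10 (SE), adjusted p = 7.52e-08). Cathepsin H (Ctsh) averaged 289.6 ± 50.2 CPM in muscle FAPs and 127 ± 36.3 CPM in lung FAPs (log2 fold change 1.18 ± 0.23 (SE), adjusted p = 1.31e-04). The protease legumain (Lgmn) went the other way, with 45.8 ± 9.43 CPM in muscle FAPs and 101.4 ± 12.8 CPM in lung FAPs (log2 fold change -1.15 ± 0.17 (SE), adjusted p = 1.03e-05). So Ifi30 and Ctsh were higher in muscle FAPs, where the class II chains were lower. Of 9 factors of the MHC promoters, 3 were higher in muscle than in lung FAPs, 0 were lower and 6 were not called, and against MEFs 7 were higher and 1 lower in muscle FAPs and likewise 7 and 1 in lung FAPs. Irf2, an interferon regulatory factor, averaged 55.5 ± 2.53 CPM in muscle FAPs and 37.6 ± 6.84 CPM in lung FAPs (log2 fold change 0.56 ± 0.13 (SE), adjusted p = 0.00144). Rfxap, a subunit of the X box factor RFX, averaged 13.6 ± 1.91 CPM in muscle FAPs and 9.52 ± 2.34 CPM in lung FAPs (adjusted p = 0.0243, edgeR), a call lost without muscle FAP 3 or 4 or lung FAP 5. With library-size scaling neither was called (adjusted p = 0.201 for Irf2 and 0.552 for Rfxap).

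Of 12 tested genes of interferon signalling, 6 were higher in muscle than in lung FAPs, 2 were lower and 4 were not called, where 23.2% of all genes were higher and 25% lower. Socs1, a feedback inhibitor of the pathway, averaged 25.5 ± 3.96 CPM in muscle FAPs and 9.05 ± 1.97 CPM in lung FAPs (log2 fold change 1.49 ± 0.18 (SE), adjusted p = 1.69e-05). The kinase gene Jak2 averaged 190.3 ± 35.4 CPM in muscle FAPs and 81.7 ± 15.8 CPM in lung FAPs (log2 fold change 1.22 ± 0.19 (SE), adjusted p = 3.28e-05). The kinase gene Tyk2 (18.8 CPM in muscle FAPs, 32.1 CPM in lung FAPs, adjusted p = 2.66e-05, edgeR) and the receptor subunit Ifngr2 (42.3 CPM in muscle FAPs, 56.4 CPM in lung FAPs, adjusted p = 0.00414, edgeR) were lower. Against MEFs, 9 of the 12 were higher and 1 was lower in muscle FAPs, and 10 were higher and 0 lower in lung FAPs.

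Of the 49 members, 25 were not tested, and 11 of them, all class I, had 0 counts in every library: H2-M10.1, H2-M10.3, H2-M10.4, H2-M10.5, H2-M10.6, H2-M11, H2-Q6, H2-Q7, H2-Q8, H2-Q9 and H2-T9. The other 14, 9 of class I and 5 of class II, reached at most 1.26 CPM in any library. H2-T3 was tested at 0.242 CPM in muscle FAPs, 0.208 CPM in lung FAPs and 0.0324 CPM in MEFs. Values of close copies are uncertain, because how reads matching several genes were counted is not given in the sources used here. Of the 50-base words in a gene's annotated transcripts, those also present in transcripts of other genes were 53.5% for H2-T22, 50.4% for H2-T10, 36.4% for H2-Q5, 36.4% for H2-Q4, 26.5% for H2-Q7, 12.8% for H2-D1, 9.63% for H2-K1 and 0% for B2m. H2-L, H2-Q8, H2-Q9 and H2-T9 were not found in the annotation, so words shared with these genes are missing from the percentages. For close copies such as H2-Q7, a count of 0 therefore does not show that the transcript was absent. H2-Q4 also overlaps Gm11131 on the other strand, and Tapbp overlaps Gm19412 and Zbtb22. The region genes H2-Ke2, annotated as the prefoldin subunit Pfdn6, and H2-Ke6, an enzyme gene, were not called in muscle FAPs against lung FAPs. H2-Ke2 averaged 19.4 ± 1.36 CPM in muscle FAPs, 21.5 ± 4.26 CPM in lung FAPs and 29.6 ± 1.20 CPM in MEFs, lower in both FAP groups than in MEFs. H2-Ke6 averaged 17.2 ± 0.562 CPM in muscle FAPs, 18.4 ± 1.86 CPM in lung FAPs and 5.61 ± 1.07 CPM in MEFs, higher in both, and 70.5% of its words lie in the overlapping gene Gm20427. The class I rise over MEFs was therefore not shared by every gene of the region.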

How the data were processed

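Deposited whole-number read counts per gene were analysed for 13 mouse bulk RNA-seq libraries. Per the labels' protocols, Trizol and silica columns were used to isolate RNA, followed by an Illumina preparation. The submitters' processing notes name Bowtie2 2.1.0.0, HTSeq, edgeR and the build mm10, and strandedness and the handling of reads matching several genes could not be taken from any source used here. Groups came from the sample labels. Counts were scaled by the trimmed mean of M-values, filtered by expression (15412 of 23418 genes left) and tested over all genes with edgeR 4.0.16 (robust quasi-likelihood, group as the sole term, all 13 libraries) in R 4.3.3. Calls need a Benjamini-Hochberg adjusted p under 0.05. SEs are from log2 CPM with a prior count of 2, not from the edgeR fit, and are too small where counts are few. Floors are 3 counts over a group. Members averaging at least 1 CPM in a group are described by name. From each pathway list, called genes with the largest change and at least 5 CPM are named, up to 2 in each direction, and from each marker list the most abundant gene. The members and all lists were chosen with earlier results of these data known. Alternatives were upper-quartile, DESeq2 1.42.0 and library-size scaling, other filters, DESeq2, limma 3.58.1 voom with sample weights, the compared groups alone, a replicate block, and leaving libraries out. The fit was tested on simulated data. Some genes of the lists are not reported here by name.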

Additional observations from a re-analysis of the deposited data

Results flagged for a closer look

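In groups of 4 or 5 libraries, a library was picked out where its gap to the nearest other library was large for the range of its group (Dixon's criterion). Of 156 groups examined, 24 gave such a value. Chance gives about 1 in 20 where values are independent and normally distributed. Here many flagged values share a library and some rest on very few counts, so the count of 24 cannot be set against that rate.

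Muscle FAP 5 was far above the other muscle libraries for B2m (2053 CPM, nearest 893), H2-K1 (1036 CPM, nearest 532), H2-D1 (429.7 CPM, nearest 264), H2-T23 (190.2 CPM, nearest 91.4) and Nlrc5 (11.8 CPM, nearest 2.07). The same held for Tap1 (118 CPM, nearest 38.0), Psmb10 (42.2 CPM, nearest 19.9) and, at a low level, Lyz2 (0.988 CPM, nearest 0.432). H2-Q1 was highest in muscle FAP 4 (0.0576 CPM, nearest 0.0299), on very few counts.

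Lung FAP 3 was far above the other lung libraries for Cd74 (85.1 CPM, nearest 21.9), H2-Eb1 (13.4 CPM, nearest 8.77), H2-Q10 (1.16 CPM, nearest 0.571), Lyz2 (615 CPM, nearest 7.45) and Scgb1a1, a secretory cell gene of the airway (5127 CPM, nearest 84.9). Lung FAP 2 was far above for H2-T24 (8.56 CPM, nearest 4.15), Cd40 (19.95 CPM, nearest 10.6) and the endothelial receptor Kdr (93.97 CPM, nearest 33.6). Lung FAP 1 was highest for H2-D1 (250.01 CPM, nearest 201). Lung FAP 4 was highest for Ifi30 (42.7 CPM, nearest 33.6) and Zbtb46 (14.9 CPM, nearest 8.65) and lowest for Tyk2 (26.7 CPM, nearest 32.1), and lung FAP 5 was highest for Cd274 (14.4 CPM, nearest 8.70). Among MEFs, MEF 4 was lowest for Ifngr2 (51.1 CPM, nearest 60.5) and MEF 3 highest for Cd79a (0.363 CPM, nearest 0.106).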

How the results depend on the processing

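Over 88 gene results, 2087 values under alternatives were computed. Of these, 1994 kept direction and call, 35 lost the call, 22 gained it and 36 changed sign, 0 of them among called values. For muscle FAPs against lung FAPs, each library left out in turn gave 3 to 5 class I members higher, 1 to 4 lower and 5 to 6 class II members lower. Class I members higher were 5 with limma-voom. Class I members lower were 2 with library-size scaling, 3 with limma-voom, 0 with a 5 CPM minimum in 4 libraries, and 4 without muscle FAP 5 and lung FAP 3 together, an alternative chosen after seeing the data. The same filter, which tests fewer members, left 3 class II members lower in muscle than in lung FAPs, 9 class I members higher in muscle FAPs than in MEFs and 3 class II members higher in lung FAPs than in MEFs. With no filter, 1 class I member was lower in lung FAPs than in MEFs. Library-size scaling moved the median of all genes by -0.41, -0.58 and -0.17 on the log2 scale in muscle FAPs against lung FAPs, muscle FAPs against MEFs and lung FAPs against MEFs. In muscle FAPs against lung FAPs it then called 1730 genes higher and 7455 lower, with 8 pathway list genes higher and 24 lower, and in muscle FAPs against MEFs 14 pathway list genes lower.

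Some log2 fold changes that were not called changed sign. For muscle FAPs against lung FAPs, library-size scaling gave -0.15 for H2-K1, -0.26 for Tapbp, -0.035 for H2-M3, -0.35 for H2-Q5 and -0.050 for H2-T10. Leaving out muscle FAP 5 and lung FAP 3 gave -0.13 for H2-K1 and -0.10 for H2-Q5. Leaving out lung FAPs 2 and 3 gave -0.012 for Tapbp, -0.038 for H2-Q5, 0.082 for H2-T24 and 0.45 for Ciita. Upper-quartile scaling gave -0.014 for H2-Q5. Limma-voom gave -0.042 for H2-Q5. Leaving out each library in turn gave -0.44 to 0.11 for B2m, -0.089 to 0.38 for H2-K1, -0.0021 to 0.22 for Tapbp, -0.036 to 0.18 for H2-Q5 and -0.49 to 0.11 for H2-T24. For muscle FAPs against MEFs, limma-voom gave -0.24 for Nlrc5. Leaving out muscle FAP 5 and lung FAP 3 gave -0.55 for Nlrc5 and -0.026 for H2-Eb1. Library-size scaling gave -0.44 for H2-Eb1 and -0.24 for H2-DMb1. Leaving out each library in turn gave -0.55 to 0.85 for Nlrc5, -0.22 to 1.06 for Cd74, -0.028 to 0.34 for H2-Eb1 and -0.70 to 0.11 for H2-Ab1. The cause was not tested.

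Replicate numbers are shared between groups, and over 11 same-numbered pairs the deviations correlated at -0.05 to 0.06, 0 of them over 0.1. The labels do not say whether same-numbered samples share an animal or a day. These correlations cannot settle it, because features of single libraries can dominate the deviations. With the number as a replicate block, 3352 genes were higher and 3453 lower in muscle FAPs against lung FAPs, H2-M3 was called there (adjusted p = 0.0409), Nlrc5 in muscle FAPs against MEFs was -0.11, Ciita in lung FAPs against MEFs had an adjusted p of 0.0619, H2-T24 in muscle FAPs against MEFs 0.137 and Tap1 in muscle FAPs against lung FAPs 0.0652 (edgeR). Members under about 1 CPM rest on few counts, and their values are limited by depth.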

Other observations

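Class I-like genes outside the H2 names followed the class I pattern against MEFs. All 5 tested of 7 listed were higher in both FAP groups than in MEFs, where 36.1% of all genes were in muscle FAPs and 37.8% in lung FAPs, and between muscle and lung FAPs 1 was higher in muscle FAPs and 2 were lower, where 23.2% of all genes were higher and 25% lower. Procr, the protein C receptor, averaged 593 ± 133 CPM in muscle FAPs, 106 ± 61.8 CPM in lung FAPs and 20.3 ± 3.74 CPM in MEFs (SD), and was called higher in muscle than in lung FAPs (adjusted p = 5.93e-05, edgeR). Mr1, which presents vitamin B metabolites to mucosal-associated invariant T cells, averaged 27.3 ± 1.81 CPM in muscle FAPs, 68.7 ± 6.02 CPM in lung FAPs and 4.44 ± 1.03 CPM in MEFs, lower in muscle than in lung FAPs (adjusted p = 1.51e-06, edgeR). Cd1d1, which presents lipids to NKT cells, averaged 4.43 ± 0.926 CPM in muscle FAPs, 8.25 ± 2.27 CPM in lung FAPs and 2.85 ± 0.115 CPM in MEFs, also lower in muscle than in lung FAPs (adjusted p = 0.00359, edgeR).

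Of 6 listed co-stimulation and checkpoint ligands 4 were tested, and 1 was higher and 2 were lower in muscle than in lung FAPs. Over all genes, 23.2% were higher and 25% lower. Cd274, which encodes PD-L1, averaged 38.0 ± 17.6 CPM in muscle FAPs, 9.13 ± 3.01 CPM in lung FAPs and 3.55 ± 0.699 CPM in MEFs, and was higher in muscle than in lung FAPs (adjusted p = 3.04e-05, edgeR), with 63.7 CPM in muscle FAP 5. Cd40, a receptor that T cells engage on antigen-presenting cells, averaged 2.85 ± 1.76 CPM in muscle FAPs, 11.7 ± 4.68 CPM in lung FAPs and 3.27 ± 0.221 CPM in MEFs. Icosl, the ligand of ICOS on T cells, averaged 40.8 ± 2.42 CPM in muscle FAPs, 127 ± 16.6 CPM in lung FAPs and 0.682 ± 0.383 CPM in MEFs. Both were lower in muscle than in lung FAPs (adjusted p = 3.31e-04 for Cd40 and 1.91e-05 for Icosl, edgeR).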
